A study of Mus musculus with 8 samples.

Results

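The genes that build selenocysteine and insert it into proteins were examined in cultured mouse hepatocytes. They were chosen by name, for their place in the pathway, and are Sephs2, Sephs1, Scly, Pstk, Sepsecs, Trnau1ap, Eefsec, Secisbp2 and Secisbp2l. They make up 9 of the 55450 genes in the count files, where each was found by its Ensembl identifier through the GRCm38 annotation. All 9 passed the filter on low counts, which left 15468 genes for testing.

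The cells were primary hepatocytes of C57BL/6 mice at 8 weeks of age, kept in serum-free medium, and RNA was sequenced from 8 libraries in 6 groups. LSKO cells, of genotype Alb-cre(+/+);Slc39a8(F/F), were given MnCl2, FeCl2, Sodium Selenite or ZnCl2 at 2 µM, with 1 library for each metal. LSKO cells without a metal gave 2 libraries, and untreated cells of genotype Slc39a8(F/F), called WT here, gave 2 more. The labels give the incubation as 24 h, and the series design calls it overnight. Slc39a8 encodes ZIP8, which takes metal ions and selenite into cells, and both genotypes carry its floxed form. In the LSKO line Cre is driven by the albumin promoter, so that the deletion is aimed at hepatocytes. Every metal was given to knockout cells, and no WT culture received one. Whether 2 replicates are 2 animals is not stated in the labels, and a p-value therefore measures only how these libraries spread, which may be technical.

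Selenocysteine is made on its own transfer RNA, which is first charged with serine. PSTK phosphorylates that serine, and SEPSECS exchanges the phosphate for selenium, taken from the selenophosphate that SEPHS2 makes out of selenide. SCLY feeds the supply by freeing selenium from used selenocysteine. The finished residue is read in at a UGA codon, which otherwise stops translation, by the elongation factor EEFSEC together with SECISBP2, a protein that grips a hairpin in the mRNA of each selenoprotein. The liver makes selenoprotein P, which carries selenium through the blood to other organs.

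SEPHS2 is itself a selenoprotein, so its own mRNA needs the pathway in order to be read through. The 27 bases around its selenocysteine codon are shown because they set Sephs2 apart from its paralog Sephs1, whose protein lacks selenocysteine and does not make selenophosphate. The capitals mark the TGA selenocysteine codon of Sephs2 and the ACA threonine codon that aligns with it in Sephs1. Both were read from GENCODE M21 transcripts on GRCm38.
Sephs2: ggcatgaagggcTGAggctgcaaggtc
Sephs1: gaactgaaaggcACAggctgcaaagtg
The Sephs2 stretch is chr7:127273719-127273745 on the minus strand, in the coding part of exonic sequence, and its capitals are codon 63 of 452. The Sephs1 stretch is chr2:4884485-4884511 on the plus strand and holds codon 29 of 392. Over 391 aligned codons the 2 coding sequences were identical at 68.5% of bases. Secisbp2 and Secisbp2l, the other paralog pair, were identical at 47.7% of bases over 820 codons.

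Measured per kilobase of exon, Sephs2 stood far above the rest. It averaged 141 normalized CPM per kb over the 8 libraries, which put it at percentile 97.4 of the 12442 protein-coding genes tested. Normalized CPM are read counts relative to the library total (CPM), after TMM (trimmed mean of M values) normalization of that total. Trnau1ap followed at 24.4 normalized CPM per kb, then Scly at 20.8, Eefsec at 13.0 and Sephs1 at 12.1. The lowest levels were those of Secisbp2l at 7.21, Secisbp2 at 6.50, Sepsecs at 4.67 and Pstk at 3.38 normalized CPM per kb. The level of Sephs2 ran from 115 to 181 over the libraries and did not meet that of any other member. Trnau1ap, at 20.3 to 29.3 normalized CPM per kb, overlapped with Scly at 18.7 to 24.8. Eefsec overlapped with Sephs1, and Secisbp2l with Secisbp2, so the order inside these 3 pairs is not set beyond their spread. Scly passed Trnau1ap, and Secisbp2 passed Secisbp2l, when the longest transcript served as the length, at 40.0 against 33.9 and 9.20 against 8.73 normalized CPM per kb in untreated LSKO cells. Even with that length Trnau1ap stayed above Scly with manganese and selenite, and Secisbp2l above Secisbp2 with zinc and in both WT libraries.

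**Figure D1:**
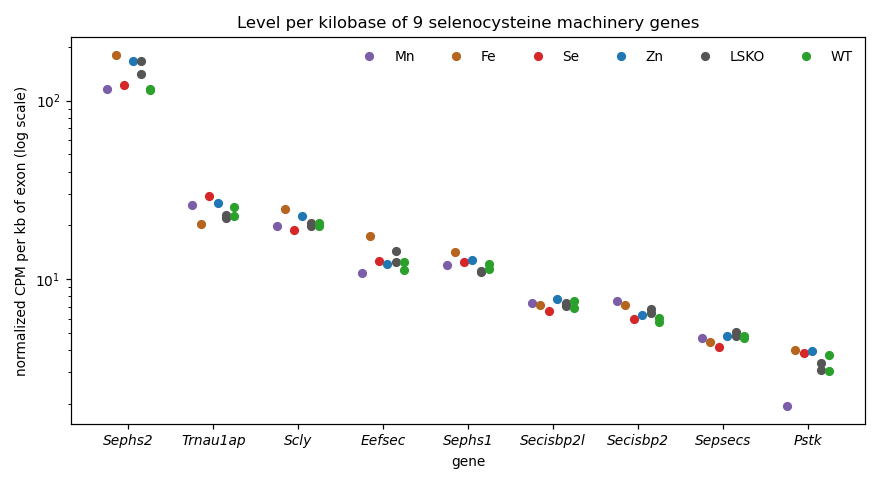
Level of each gene in normalized CPM per kilobase of exon (vertical axis, log scale) for the 9 genes in falling order of their mean; each dot is 1 library, in the order Mn, Fe, Se, Zn, LSKO and WT within a gene. Sephs2 lies at 115 to 181 and stands apart from all others, while the lowest dot is Pstk in the manganese library at 1.94.

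The libraries held 19943899 to 27731054 reads in genes, and several of their features touch the values below. Slc39a8, the deleted gene, had 8.14 and 1.87 normalized CPM in untreated LSKO cells and 1.48 to 3.17 with a metal, against 12.7 and 15.5 in WT cells (log2 fold change of LSKO over WT -1.52, standard error 0.44, edgeR adjusted p = 0.0426). LSKO replicate 1 thus kept more of it than the other LSKO libraries, and the difference was -2.88 without that library and -0.78 without LSKO replicate 2. It was not called without WT replicate 1 (-1.64, edgeR adjusted p = 0.178) or WT replicate 2 (-1.36, adjusted p = 0.256). With manganese, 72.2% of reads fell in genes, 5.18% in more than 1 gene and 4.48% in none, against 39.3% to 42.1%, 1.25% to 1.49% and 42.3% to 45.6% in the other 7. The count of reads dropped for poor alignment was 62 with manganese and 0 in either untreated LSKO library, but 592678 to 680199 with iron, selenite or zinc and in WT cells, and this split cannot be told apart from those groups. Reads that did not align were split in the same way, at 8.79% with manganese and 9.44% and 10.0% in untreated LSKO cells, against 4.12% to 4.94% elsewhere. A trend with the length and GC content of the longest transcript was fitted over 10880 genes. It explained 41.7% of how the selenite library deviated from the mean library, against 3.32% to 13.6% for the others (share of variance). All 8 hepatocyte markers were detected in every library, with summed levels of 30206 to 49749 normalized CPM with a metal, 28446 and 36378 in untreated LSKO cells and 20273 and 19278 in WT cells. Markers of other liver cells summed to 188 to 467 for Kupffer cells and macrophages, 76.5 to 183 for sinusoidal endothelium, 15.8 to 44.0 for stellate cells and fibroblasts, and 14.3 to 25.4 for cholangiocytes. Of all these markers only Krt7 was at 0, in the iron library and in WT replicate 2. In bulk RNA, fewer cells of a type and less RNA per cell cannot be told apart.

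Each metal was compared with untreated LSKO cells, untreated LSKO with WT cells, and selenite with the mean of iron and zinc, whose libraries share the alignment summary of the selenite library. This last comparison was chosen with earlier results of these data known. A gene was called at an adjusted p under 0.05 (edgeR's quasi-likelihood test, Benjamini-Hochberg over all 15468 genes) with a log2 fold change beyond 0.5 in size. The 4 metal comparisons share their 2 control libraries. Where a metal library is set against WT cells instead, genotype and metal differ together and cannot be told apart. A metal library has no replicate and was assumed to vary like the LSKO and WT pairs.

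Few of the 9 genes moved past that rule in any comparison. Selenite against untreated LSKO gave no call among the 9, where 17.6% of all genes were called. Manganese gave 1 call, Pstk, which was lower, beside 17.2% of all genes and 15.1% in the lower direction. Iron gave none (8.7% of all genes), zinc none (4.45%) and LSKO against WT none (10.4%). Selenite against the mean of iron and zinc gave 1 call, Sephs2, which was lower, beside 15.9% of all genes and 8.35% in the lower direction. A count of 1 among 9 genes is close to these shares and is no result about the members as a set. At an unadjusted p under 0.05 by edgeR the members numbered 2 with selenite (39.7% of all genes), 3 with manganese (30.4%), 3 with iron (28.2%), 2 with zinc (18.6%), 1 for LSKO against WT (28.8%) and 3 for selenite against iron and zinc (37.5%), and these counts too are near or below the shares of all genes. DESeq2 gave the same calls, Pstk with manganese and Sephs2 for selenite against iron and zinc. The median log2 fold change of the 9 was -0.11 with selenite, -0.03 with manganese, 0.23 with iron, 0.13 with zinc, 0.01 for LSKO over WT and -0.16 for selenite over iron and zinc. Over all genes tested these medians lay between -0.02 and 0.02. With the correction for length and GC content the median of the 9 changed sign with selenite, to 0.07, and was -0.02 for selenite over iron and zinc, so neither median is read as a direction of the members.

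**Figure D2:**
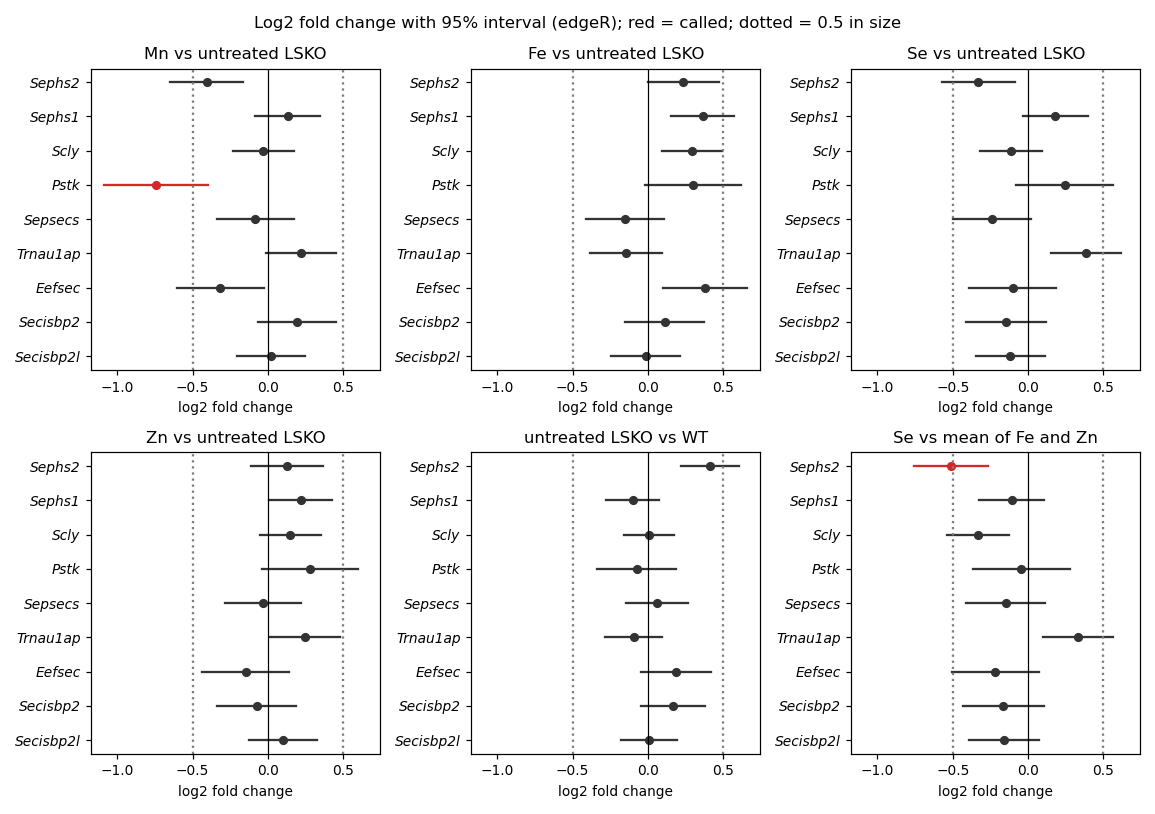
Log2 fold change (horizontal axis) of the 9 genes in the 6 comparisons, with 95% intervals from edgeR as bars; red marks a call and the dotted lines a size of 0.5. The red points are Pstk with manganese at -0.74 and Sephs2 for selenite over the mean of iron and zinc at -0.51.

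Among the genes of selenophosphate supply, Sephs2 gave the call. Sephs2 (chromosome 7, 127271879 to 127274055, minus strand) had 253 normalized CPM with manganese, 393 with iron, 266 with selenite, 365 with zinc, 307 and 362 in untreated LSKO cells, and 252 and 251 in WT cells. The manganese, selenite and WT libraries lay below the iron, zinc and untreated LSKO libraries without overlap. They rest on 5389 to 9850 reads per library.

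Sephs2 was 1.43-fold lower with selenite than with iron and zinc, at a log2 fold change of -0.51 (standard error 0.11, 95% interval -0.75 to -0.27, edgeR adjusted p = 0.0087). Against iron alone it was -0.56 (edgeR adjusted p = 0.0071), and against zinc alone -0.46 (adjusted p = 0.0697, not called), 2 comparisons added after seeing the data. Calls among the 9 genes numbered 2 against iron alone, beside 24.8% of all genes, and 0 against zinc alone, beside 2.92%. Without the iron library the value was -0.50 and no longer called (edgeR adjusted p = 0.0539), and without the zinc library -0.56. A correction for length and GC content gave -0.58 (edgeR adjusted p = 0.0071). Hepatocyte markers moved the other way in this comparison, with 5 of 8 called higher and 1 lower, and with sums of 49749 normalized CPM with selenite, 30206 with iron and 36178 with zinc. Markers of other liver cells were also called higher, 2 of 7 for Kupffer cells and macrophages, 2 of 6 for sinusoidal endothelium, 3 of 7 for stellate cells and fibroblasts and 1 of 2 tested for cholangiocytes, and none lower, beside 7.53% of all genes called higher. The stellate and fibroblast sum was 40.9 normalized CPM with selenite, 15.8 with iron and 32.0 with zinc. The endothelial sum was 105 with selenite, 76.5 with iron and 94.5 with zinc, and the cholangiocyte sum 20.5, 16.2 and 14.3. The Kupffer cell and macrophage sum did not share this order, at 312 with selenite between 319 with iron and 279 with zinc. The part of these markers in the Sephs2 difference was not tested.

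Against untreated LSKO cells, Sephs2 with selenite had a log2 fold change of -0.33 (standard error 0.11, 95% interval -0.57 to -0.09, edgeR adjusted p = 0.0463). It passed the adjusted p but not the fold minimum, and the 2 control libraries differed 1.18-fold from each other. Leaving out LSKO replicate 1 gave -0.49, and leaving out LSKO replicate 2 gave -0.24. With 1 LSKO library left, only the WT pair informs the residual spread, so these 2 values are printed as effect sizes alone. Against WT cells, whose libraries share the alignment summary of the selenite library, the difference was 0.08 (edgeR adjusted p = 0.595). The sign of the difference therefore depended on which untreated cells served as the control, and the difference from WT cells holds the genotype as well as selenite.

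Sephs2 averaged 335 ± 38.8 normalized CPM in untreated LSKO cells and 252 ± 0.462 in WT cells (SD, n = 2 each). The log2 fold change was 0.41 (standard error 0.088, 95% interval 0.22 to 0.61, edgeR adjusted p = 0.0103), under the fold minimum. Without LSKO replicate 1 it was 0.55, and without LSKO replicate 2 it was 0.30. Either fit leaves 1 LSKO library, so that its residual spread came from the WT pair alone, whose SD for Sephs2 was 0.462. No p-value is therefore given for them. All 8 hepatocyte markers were called higher in LSKO than in WT cells, with a median log2 fold change of 1.38. So was 1 of 7 Kupffer cell and macrophage markers, beside 6.74% of all genes called higher. Called lower were 1 of 6 sinusoidal endothelial and 1 of 7 stellate and fibroblast markers, beside 3.7% of all genes. The endothelial sums were 147 and 117 normalized CPM in LSKO cells and 177 and 183 in WT cells. The part of these markers in the Sephs2 difference was not tested either.

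With WT cells as the control, Sephs2 was called higher in LSKO cells given iron (0.64, edgeR adjusted p = 0.00312) and zinc (0.54, adjusted p = 0.00889). The calls among the 9 genes then numbered 2 with iron, beside 10.6% of all genes, and 1 with zinc, beside 9.7%. Against untreated LSKO cells neither was called, at 0.23 (edgeR adjusted p = 0.181) and 0.13 (adjusted p = 0.567).

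Sephs1 (chromosome 2, 4881564 to 4910557, plus strand) had 71.3 normalized CPM with manganese, 83.7 with iron, 73.9 with selenite, 75.7 with zinc, 64.7 and 65.5 in untreated LSKO cells, and 72.3 and 67.4 in WT cells. The metal libraries all lay above the untreated LSKO pair, and iron was the highest of all 8. The log2 fold change with iron was 0.36 (standard error 0.096, 95% interval 0.15 to 0.57, edgeR adjusted p = 0.033), under the fold minimum, and those with the other metals ran from 0.13 to 0.22 with adjusted p of 0.186 or more. For selenite over iron and zinc it was -0.11 (95% interval -0.32 to 0.11), where its paralog Sephs2 had -0.51.

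Scly, selenocysteine lyase (chromosome 1, 91298338 to 91321075, plus strand), had 90.3 normalized CPM with manganese, 113 with iron, 85.2 with selenite, 102 with zinc, 90.6 and 93.7 in untreated LSKO cells, and 93.6 and 89.8 in WT cells. Iron and zinc were the highest and selenite the lowest. For selenite over iron and zinc the log2 fold change was -0.33 (standard error 0.093, 95% interval -0.54 to -0.13, edgeR adjusted p = 0.0267), under the fold minimum. It was -0.29 with the correction for length and GC content (edgeR adjusted p = 0.0469). LSKO and WT cells differed by 0.01 (95% interval -0.16 to 0.17).

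**Figure D3:**
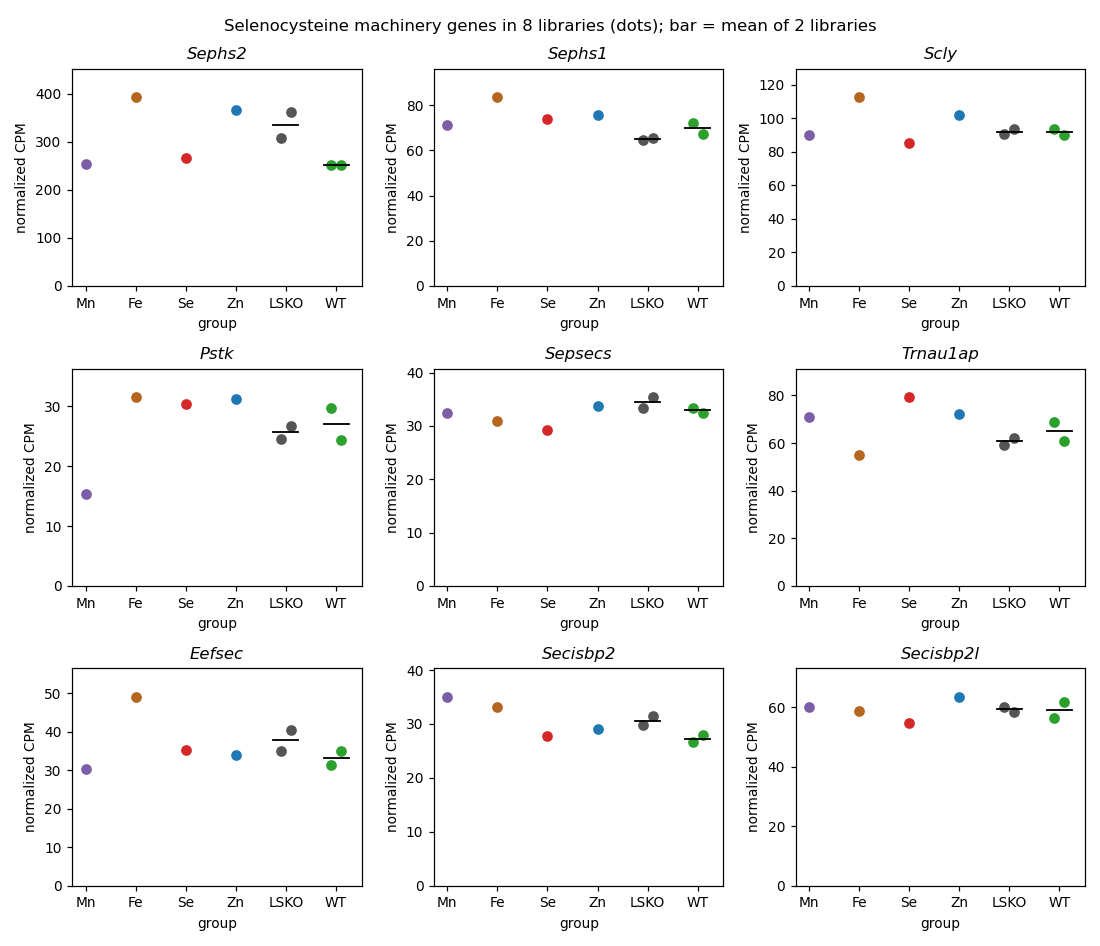
Normalized CPM (vertical axis, from 0) of the 9 genes in the groups Mn, Fe, Se, Zn, untreated LSKO and WT; each dot is 1 library and a bar is the mean of 2 libraries. Sephs2 lies at 251 to 266 with manganese, selenite and in WT cells and at 307 to 393 elsewhere, Pstk has its low dot of 15.4 with manganese, and Secisbp2l stays between 54.7 and 63.5.

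On the transfer RNA itself, the kinase gene Pstk gave the other call. Pstk (chromosome 7, 131371141 to 131394482, plus strand) had 15.4 normalized CPM with manganese, 31.6 with iron, 30.5 with selenite, 31.2 with zinc, 24.6 and 26.8 in untreated LSKO cells, and 29.7 and 24.3 in WT cells. The manganese library lay below all 7 others, which differed from each other by at most 1.30-fold. The fall with manganese was 1.67-fold, at a log2 fold change of -0.74 (standard error 0.155, 95% interval -1.09 to -0.40, edgeR adjusted p = 0.00494).

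A gene on the opposite strand overlaps most of the exonic bases of Pstk. Of the 7914 exonic bases of Pstk, 4652 (58.8%) lie under exons of Ikzf5, a zinc finger gene on the minus strand (131388652 to 131410521). Ikzf5 had 21 reads in the manganese library, against 416 to 681 in the other 7. The strand setting of the counting is not given in the sources used here, and reads of such a pair cannot be told apart without it. Over all genes, manganese against untreated LSKO called 39.9% of the 5568 genes with an exon overlapped on the opposite strand and 4.36% of the 9900 without. The part of the overlap in the Pstk fall was not tested.

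Sephs2 has such a partner too, Gm44729, a tentative gene model on the plus strand (127273264 to 127275315) that covers 792 of its 2177 exonic bases (36.4%), the selenocysteine codon among them. Gm44729 had 0 reads with manganese and 2296 to 4419 in the other libraries, where its count was a steady 0.422 to 0.465 of that of Sephs2. The difference of Sephs2 between manganese and untreated LSKO was -0.40 (standard error 0.11, edgeR adjusted p = 0.0225) and is read with that caution. It was -0.52 without LSKO replicate 1, and 0.01 against WT cells (edgeR adjusted p = 0.973). Smaller overlaps exist for Eefsec (308 bases, Gm44264) and Scly (159 bases, Gm17090), whose partners had 3 and 6 reads with manganese. The 5 genes without an overlap, Sephs1, Sepsecs, Trnau1ap, Secisbp2 and Secisbp2l, were all uncalled with manganese, at log2 fold changes of -0.08 to 0.22. In the 7 libraries without manganese the Ikzf5 count was 0.623 to 0.948 of that of Pstk.

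**Figure D4:**
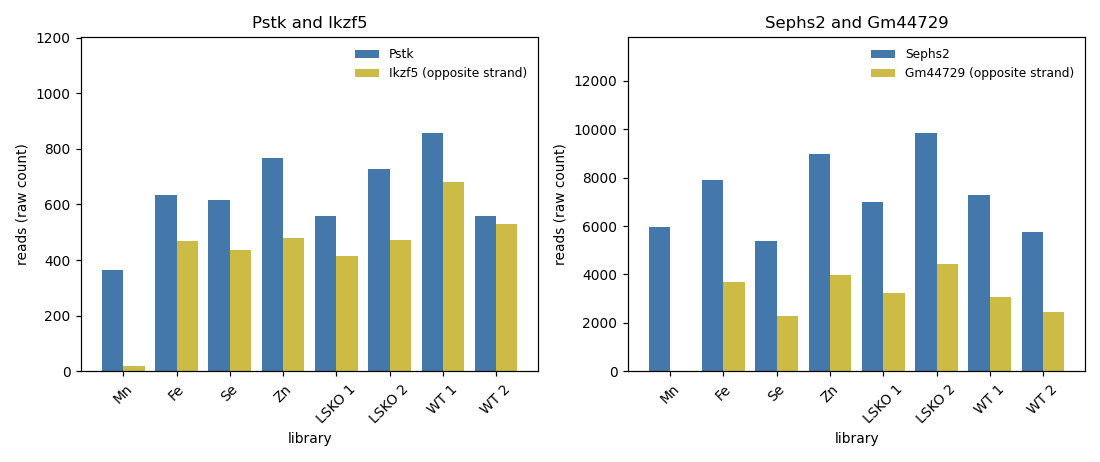
Raw read counts (vertical axis, from 0) of Pstk and its opposite-strand neighbour Ikzf5 (left) and of Sephs2 and Gm44729 (right) in each of the 8 libraries. In the manganese library the partner bars stand at 21 and 0 reads, while in the other 7 they reach 416 to 681 and 2296 to 4419.

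Sepsecs, the synthase that takes over from PSTK (chromosome 5, 52640087 to 52669708, minus strand), had 32.5 normalized CPM with manganese, 31.0 with iron, 29.2 with selenite, 33.7 with zinc, 33.4 and 35.5 in untreated LSKO cells, and 33.4 and 32.5 in WT cells. Selenite was the lowest of a narrow range, with the highest library 1.22-fold above it. The log2 fold change with selenite was -0.24 (95% interval -0.50 to 0.02, edgeR adjusted p = 0.156).

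Trnau1ap, which binds the selenocysteine transfer RNA (chromosome 4, 132311763 to 132329538, minus strand), had 70.8 normalized CPM with manganese, 55.0 with iron, 79.4 with selenite, 72.0 with zinc, 59.4 and 62.1 in untreated LSKO cells, and 68.8 and 61.0 in WT cells. Selenite was the highest library and iron the lowest. The selenite difference from untreated LSKO was 0.39 (standard error 0.105, 95% interval 0.15 to 0.62, edgeR adjusted p = 0.0218), under the fold minimum. It became 0.21 (edgeR adjusted p = 0.148) with the correction for length and GC content, and 0.29 (adjusted p = 0.0501) against WT cells. Over the mean of iron and zinc it was 0.34 (edgeR adjusted p = 0.0414), made of 0.53 against iron (adjusted p = 0.00926, called) and 0.14 against zinc (adjusted p = 0.517).

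Among the insertion factors no call was made against untreated LSKO cells. Eefsec, the elongation factor for this residue (chromosome 6, 88257334 to 88446539, minus strand), had 30.3 normalized CPM with manganese, 49.1 with iron, 35.2 with selenite, 34.1 with zinc, 35.0 and 40.5 in untreated LSKO cells, and 31.5 and 34.9 in WT cells. Iron was above every other library. The iron difference was 0.38 against untreated LSKO (standard error 0.127, 95% interval 0.10 to 0.66, edgeR adjusted p = 0.0772) and 0.57 against WT cells (adjusted p = 0.0154, called).

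Secisbp2, which binds the selenoprotein mRNA hairpin (chromosome 13, 51651697 to 51684044, plus strand), had 35.0 normalized CPM with manganese, 33.1 with iron, 27.7 with selenite, 29.1 with zinc, 29.8 and 31.4 in untreated LSKO cells, and 26.6 and 28.0 in WT cells. Manganese and iron lay above the untreated LSKO pair, and selenite and zinc below it. The log2 fold changes ran from -0.15 with selenite (95% interval -0.41 to 0.12) to 0.19 with manganese (-0.06 to 0.45).

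Secisbp2l, its paralog (chromosome 2, 125736986 to 125782870, minus strand), had the narrowest range of the 9, from 54.7 with selenite through 60.2 in both LSKO replicate 1 and the manganese library to 63.5 normalized CPM with zinc. The lowest and highest libraries differed 1.16-fold. Selenite differed from untreated LSKO by -0.12 (95% interval -0.35 to 0.11) and LSKO from WT cells by 0.01 (-0.18 to 0.19).

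At any fold, with the adjusted p as the lone criterion, the counts of members were close to or below the shares of all genes. They are no result about the members as a set. Selenite against untreated LSKO had 2, Sephs2 lower and Trnau1ap higher, beside 26.7% of all genes. Manganese had 2, Pstk and Sephs2, both lower (20.4% of all genes), and iron had 1, Sephs1, which was higher (12.4%). Zinc had none (5.12% of all genes), and LSKO against WT had 1, Sephs2, which was higher (14.8%). Selenite against iron and zinc had 3, Sephs2 and Scly lower and Trnau1ap higher (24% of all genes).

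The members did not follow a common pattern over the 8 libraries. Pearson's r of log2 normalized CPM between pairs of members ran from -0.66 for Eefsec with Trnau1ap to 0.78 for Sephs2 with Scly. These points share libraries and depth, and r over 8 libraries of 6 groups describes them only. Among the 8587 protein-coding genes that averaged 10 normalized CPM or more, the closest to Sephs2 were Keap1 (r = 0.98), Gpld1 (0.96) and H2afx (0.95). Pstk was closest to Rsph3a (0.99), Rmnd1 and Snw1, and Trnau1ap to Commd4 (0.98), Polr2g and Rps23. For Scly they were Rab1b (0.97), Mbd3 and Cd2bp2, for Sephs1 Rab5b (0.96), Nop56 and Atl2, and for Eefsec Sdf2l1 (0.96), Tox4 and Get4. Sepsecs had Yod1 (0.94), Hpn and Fhl3, Secisbp2 had Mocs1 (0.99), Arsg and Srrm4, and Secisbp2l had Atp9b (0.95), Ppp2r5b and Nsmaf. Each is the highest of many candidates, so a high r is what the search returns. Pstk had 15.4 normalized CPM with manganese and 24.3 to 31.6 in the other libraries, so its r leans on the manganese library.

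Among the products of the pathway, the selenoproteins, several were called with selenite. Of 24 selenoprotein genes 22 were tested, and Dio2 and Selenov were too low. With selenite against untreated LSKO, 7 of the 22 were called higher and none lower, with a median log2 fold change of 0.42, beside 7.89% of all genes called higher. The 4 largest were Gpx3 at 1.28 (standard error 0.23, edgeR adjusted p = 0.00306), Gpx1 at 1.24 (0.101, adjusted p = 2.47e-05), Selenow at 1.21 (0.0909, adjusted p = 1.63e-05) and Selenoh at 0.73 (0.161, adjusted p = 0.00893). Gpx1 and Gpx3 are glutathione peroxidases, which remove peroxides. Gpx1 had 2973 normalized CPM with selenite, against 1181 and 1335 in untreated LSKO cells, and Selenow had 243, against 107 and 103. DESeq2 called 5 of the 22 higher, and the correction for length and GC content left 4, Gpx1, Gpx3, Gpx4 and Selenow, with a median of 0.22. In the same comparison 4 of 8 hepatocyte markers were called higher and none lower, with a median of 0.56. That correction left 1 of them, with a median of 0.32. Called lower were 3 of 6 sinusoidal endothelial and 2 of 7 stellate and fibroblast markers, beside 9.67% of all genes. The correction for length and GC content left 1 of each list. The 2 stellate and fibroblast markers were Col1a1 and Pdgfrb, near the floor at 0.0987 and 0.197 normalized CPM with selenite. The sum of that list was 40.9 with selenite, against 40.8 and 37.3 in untreated LSKO cells. Of the Kupffer cell and macrophage markers, 2 of 7 were called higher. The part of these markers in the selenoprotein values was not tested. Gpx1, Gpx3, Gpx4 and Selenow were picked by the study on these same libraries, and their direction here is thus no independent evidence. Against the mean of iron and zinc, 6 of the 22 were called higher and 1 lower, beside 7.53% of all genes called higher and 8.35% lower, with a median of 0.30. The lower one was Sephs2, which belongs to both lists. The correction for length and GC content left 3 higher, Gpx1, Gpx3 and Selenow, and Sephs2 lower, with a median of 0.07.

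Lists of other steps had 0 to 3 calls each with selenite against untreated LSKO, where 17.6% of all genes were called. A count of 0 in a list of 6 or 7 genes is close to that share and is no result about the list. Of 7 genes that charge or modify the selenocysteine transfer RNA, none was called by edgeR or DESeq2, 1 had an unadjusted p under 0.05 by edgeR and 0 by DESeq2, and the median log2 fold change was 0.08. Over all genes 39.7% had such a p by edgeR and 24.7% by DESeq2. The smallest p was that of the methyltransferase gene Ftsj1 (0.32, edgeR adjusted p = 0.114). Sars, the seryl-tRNA synthetase gene that begins the route and was chosen after its values were seen, was called higher with iron at 0.53 (edgeR adjusted p = 0.0116). The call was lost with the correction for length and GC content (0.45, edgeR adjusted p = 0.0201), without either WT library (0.52 in both, adjusted p = 0.0518 and 0.0515) and without LSKO replicate 2 (0.41, adjusted p = 0.0033). Its level was 685 normalized CPM with iron, against 513 and 435 in untreated LSKO cells and 612 and 571 in WT cells.

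Of 6 other proteins known to bind selenoprotein mRNA, none was called with selenite by edgeR or DESeq2, and 4 by edgeR and 3 by DESeq2 had an unadjusted p under 0.05, with a median of 0.06. Rpl30, a ribosomal protein that also binds the selenocysteine hairpin, had the smallest p at 0.47 (standard error 0.0885, edgeR adjusted p = 0.00422), but stood at 0.04 with the correction for length and GC content (adjusted p = 0.775). It had 746 normalized CPM with selenite, against 528 and 553 in untreated LSKO cells. Over iron and zinc Rpl30 was called higher at 0.57, and with the correction no gene of the list was called.

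Nonsense-mediated decay, which can destroy an mRNA whose UGA is read as a stop, had 3 of 8 genes called lower with selenite, beside 9.67% of all genes, and a median of -0.23. They were the helicase gene Upf1 at -0.79 (standard error 0.119, edgeR adjusted p = 0.00134), the endonuclease gene Smg6 at -0.61 (0.134, adjusted p = 0.0083) and the kinase gene Smg1 at -0.52 (0.106, adjusted p = 0.00616). With the correction for length and GC content none was called, and they stood at -0.28, -0.25 and -0.12, with a list median of -0.02. Of 6 tested genes for selenium uptake and reduction (Lrp2 was too low) none was called with selenite by edgeR or DESeq2, 1 by edgeR and 0 by DESeq2 had an unadjusted p under 0.05, and the median was -0.08. That gene was Slc39a8 itself at -1.72 (standard error 0.73, edgeR adjusted p = 0.106), a value set by LSKO replicate 1, since it was -0.39 without that library and -2.49 without LSKO replicate 2. General elongation factors also had none of 6 called by edgeR or DESeq2, 4 with an unadjusted p under 0.05 by either tool, and a median of 0.17. With the correction for length and GC content the median was 0.04, and 1 had an unadjusted p under 0.05. Eef1d had the smallest p at 0.43 (standard error 0.0917, edgeR adjusted p = 0.00706), and 0.32 with that correction (adjusted p = 0.0229).

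**Figure D5:**
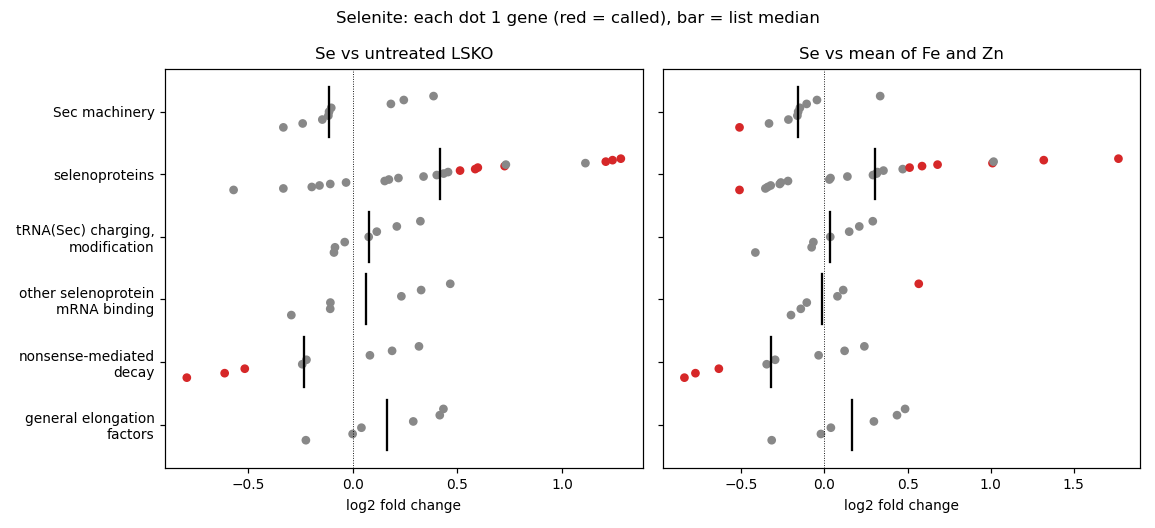
Log2 fold change (horizontal axis) with selenite over untreated LSKO (left) and over the mean of iron and zinc (right) for the genes of 6 lists; each dot is 1 gene, red dots are called, and the bar is the list median. The 9 machinery genes have medians of -0.11 and -0.16, while the selenoprotein list has medians of 0.42 and 0.30; with the correction for length and GC content these are 0.07 and -0.02, and 0.22 and 0.07.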

How the data were processed

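RNA-seq of primary mouse hepatocytes gave 8 libraries. The authors deposited raw gene counts, made with Trimmomatic, hisat2 v.2.1.0 and HTSeq-Count v.0.11.2 on GRCm38. Neither strand setting nor annotation release is given in the sources used here. The summary lines (27.8% to 60.7% of the total) stayed out of library sizes and tests. All 55450 identifiers matched GENCODE M21, and 8 of 9 members matched a promoter in the RefSeq table of GRCm38.p6.

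Genes whose counts summed to 80 or more were fitted in 1 model of 6 groups by edgeR 4.0.16 in R 4.3.3, with TMM factors. The fit left 2 residual degrees of freedom, with 8.53 added by moderation, and a common biological coefficient of variation of 8.29%. Standard errors are the size of the log2 fold change over the square root of F. Alternatives were DESeq2 1.42.0, median-ratio size factors, other filters, adjusted p alone, each library left out, other controls, and a length and GC correction (splines with 4 degrees of freedom, MASS 7.3.60.0.1). The scripts were tested on simulated data.

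The chi-square of replicate counts, divided by its degrees of freedom, was 13.7 for LSKO and 6.07 for WT, above counting error alone. The members, the lists and the comparison of selenite with iron and zinc were chosen with earlier results of these data known. Named genes are the 9 members, Slc39a8, up to 4 called genes of each other list with the largest change with selenite (or that with the smallest p), and the 3 genes most correlated with each member; genes named beyond that were chosen after their values were seen. The study's other assays were not used here.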

Additional observations from a re-analysis of the deposited data

Results flagged for a closer look

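Sephs2 differed between metals given to LSKO cells. The test of the difference itself, selenite minus the mean of iron and zinc, gave a log2 fold change of -0.51 (edgeR adjusted p = 0.0087). It was chosen with earlier results of these data known. The difference was not called against zinc alone (-0.46, edgeR adjusted p = 0.0697) or without the iron library. Over untreated LSKO cells, Sephs2 had -0.33 with selenite, 0.23 with iron and 0.13 with zinc, each from 1 library.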

How the results depend on the processing

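Of the member values uncalled in the results above, 642 kept their direction and stayed uncalled, 14 became called and 28 changed sign under an alternative, these 28 at log2 sizes of 0.106 or less and uncalled. Of the called values, 25 stayed called and 2 did not, both Sephs2 for selenite against iron and zinc. With the adjusted p alone, the members called numbered 2 with selenite, 2 with manganese, 1 with iron, 1 for LSKO against WT and 3 for selenite against iron and zinc. With WT as the control they numbered 2 with iron and 1 with zinc. Selenite against iron alone gave 2 (24.8% of all genes) and against zinc alone 0 (2.92%). Leaving out 1 library gave 1 to 2 with manganese, 0 to 1 for LSKO against WT and 0 to 2 for selenite against iron and zinc. An arm left with 1 library was assumed to vary like the others. The selenite comparison with iron and zinc was not run on its own groups, which leave no residual degrees of freedom.

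LSKO over WT changed sign for Secisbp2l and Scly with no filter (-0.0124 and -0.0127), filterByExpr (-0.0063 and -0.00676) and only the groups compared (-0.000757 and -0.00106), and for Scly with the length and GC correction (-0.0596). That correction gave 0.0682 for Secisbp2l and 0.106 for Eefsec with selenite, and 0.0281 for Secisbp2l over iron and zinc. With WT as the control, selenite gave 0.0218 for Secisbp2, 0.0856 for Eefsec and 0.0797 for Sephs2, manganese 0.0063 for Sephs2, and zinc 0.0923 for Secisbp2, 0.0395 for Eefsec and 0.031 for Sepsecs. Eefsec had 0.0461 with selenite against zinc alone. Leaving out 1 library, LSKO over WT ran from -0.0332 to 0.0902 for Secisbp2l, -0.192 to 0.105 for Pstk, -0.161 to 0.020 for Trnau1ap and -0.00598 to 0.0621 for Scly, manganese from -0.0535 to 0.0102 for Scly, and zinc from -0.0769 to 0.0265 for Sepsecs. The cause was not tested.

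LSKO and WT libraries share replicate numbers only: their replicate differences correlated at -0.07 over 15468 genes. A replicate block left 0 members called and 1725 genes against 1615, and turned Secisbp2l to -5.2e-05 and Scly to -0.00109. Over all genes, DESeq2 called 1649 with selenite (2717 by edgeR), 750 with iron (1345), 415 with zinc (688), 1039 for LSKO against WT (1615) and 1529 for selenite against iron and zinc (2456). The length and GC correction called 1388 with selenite and 1096 against iron and zinc, and with manganese 678 higher and 2243 lower, beside 324 and 2330 without it. The lowest count of a member was 363 reads, and each metal had 1 library.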

Other observations

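Promoter sequence was searched for 8 of the 9 members, from 250 bases before to 50 after the RefSeq start (GRCm38.p6), on both strands. The antioxidant response element core TGACNNNGC was in 0 of 8, against 12.4% of 32851 promoters of the same length. The metal response element core TGCGCNC was in 2 of 8, Eefsec and Pstk, against 15.4%, and its other form TGCACNC was in 0 of 8, against 12.6%. These are matches of letters only, and no match says only that the letters are not in this window.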
